A study of Mus musculus with 2 samples.

Results

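The alpha- and beta-tubulin isotypes are the 10 genes Tuba1a, Tuba1b, Tuba1c, Tuba4a, Tubb2a, Tubb2b, Tubb3, Tubb4a, Tubb4b and Tubb5, which encode the building blocks of microtubules. They were taken by gene symbol, as 4 alpha and 6 beta genes out of 43346 mouse genes in the gene tables, and all 10 were found in both libraries. The tissue was neural tube dissected from mouse embryos of strain B6NCrl at embryonic day 13.5, with male and female embryos pooled and no treatment or genetic change named in the labels. There was 1 group of 2 biological replicates, each made from 10 ng of RNA. With a single group, the measurements are levels within each library, ratios between genes of the same library, and the difference between the replicates. The smallest p-value of an exact permutation test of 2 against 2 values is 1 in 3, so none was computed.

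Microtubules are hollow polymers of alpha-beta tubulin heterodimers, and they give neurites their tracks for transport and dividing cells their spindle. Vertebrates carry several genes for each subunit, whose proteins are nearly alike over the globular body and differ most in the acidic carboxy-terminal tail that lies on the microtubule surface. That tail is where motors and microtubule-associated proteins bind and where glutamates, glycines and the terminal tyrosine are added or removed. In the developing nervous system Tuba1a, Tubb2a, Tubb2b and Tubb3 are known as isotypes rich in neurons, while Tuba1b, Tuba1c, Tubb4b and Tubb5 are widely expressed, and mutations of several of these genes cause cortical malformations.

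Because the proteins differ most in the tail, the last 60 coding bases, stop codon included, are shown for 8 of the genes from the GENCODE M21 transcripts (GRCm38), 5′ to 3′ and in frame. Capitals mark the codons GAA and GAG, both of which encode glutamate.
Tuba1c, chr15:99037950-99038009, plus strand: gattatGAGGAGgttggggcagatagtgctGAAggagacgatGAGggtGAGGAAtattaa
Tuba4a, chr1:75215622-75215681, minus strand: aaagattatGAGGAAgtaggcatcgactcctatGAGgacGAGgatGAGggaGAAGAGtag
Tubb2a, chr13:34074468-34074527, minus strand: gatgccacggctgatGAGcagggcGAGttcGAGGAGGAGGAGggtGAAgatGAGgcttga
Tubb2b, chr13:34127471-34127530, minus strand: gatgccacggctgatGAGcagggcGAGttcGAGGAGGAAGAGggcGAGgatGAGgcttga
Tubb3, chr8:123421623-123421682, plus strand: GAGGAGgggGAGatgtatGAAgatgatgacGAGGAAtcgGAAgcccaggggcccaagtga
Tubb4a, chr17:57080690-57080749, minus strand: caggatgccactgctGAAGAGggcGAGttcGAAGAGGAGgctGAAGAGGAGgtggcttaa
Tubb4b, chr2:25222308-25222367, minus strand: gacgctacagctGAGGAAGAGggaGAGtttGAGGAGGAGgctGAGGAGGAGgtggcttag
Tubb5, chr17:35834982-35835041, minus strand: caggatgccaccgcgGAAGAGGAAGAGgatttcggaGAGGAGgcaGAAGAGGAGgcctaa
These tails held between 6 such codons, in Tuba1c, and 10, in Tubb4b. Tuba1c ended in a tyrosine codon, tat, ahead of the stop, whereas Tuba4a ended directly in the glutamate codon GAG. This tyrosine is the residue that the detyrosination and tyrosination cycle removes and restores. Tubb3 alone among the beta genes ended in a lysine codon, aag, where the other 5 ended in alanine codons, gct or gcc. The tails of Tubb2a and Tubb2b differed at 3 bases, and each of these differences left the encoded residue the same.

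The start of the coding sequence also carries a known signal, since the ribosome-bound factor TTC5 reads the first residues of nascent tubulin when excess dimers trigger decay of their own mRNA. The first 4 codons, with the start codon in capitals, were the same in Tuba1a, Tuba1b and Tuba1c, differed at 1 codon in Tuba4a, and took 5 forms among the 6 beta genes. All of these differences within a family were synonymous, so the encoded first residues were the same throughout each family.
Tuba1a, Tuba1b and Tuba1c: ATGcgtgagtgc
Tuba4a: ATGcgcgagtgc
Tubb2a: ATGcgcgagatc
Tubb2b: ATGcgagagatc
Tubb3 and Tubb4b: ATGagggagatc
Tubb4a: ATGcgggaaatc
Tubb5: ATGagggaaatc
The fourth codon separated the families: it was tgc in all 4 alpha genes and atc in all 6 beta genes.

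Alpha-tubulin RNA was almost entirely Tuba1a, the alpha gene of immature neurons. Levels are in TPM, the length-corrected share of all transcripts in a library, on which Tuba1a (ENSMUSG00000072235.5, chromosome 15, 98949837 to 98953703, minus strand) stood at 11801.9 in replicate 1 and 11026.3 in replicate 2, a mean of 11414.1 ± 548.4 TPM (SD, n = 2). It ranked 1 among the 21474 protein-coding genes in each library. Tuba1b (ENSMUSG00000023004.8, chromosome 15, 98931425 to 98934565, minus strand), a widely expressed alpha gene 15.3 kb from Tuba1a, was listed at 818.5 and 784.8 TPM in replicates 1 and 2, a mean of 801.6 ± 23.9. The level of Tuba1a was 14.4 times that of Tuba1b in replicate 1 and 14.05 times in replicate 2.

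The remaining alpha members were low in both libraries. Tuba1c (ENSMUSG00000043091.8, chromosome 15, 99029891 to 99038110, plus strand), a broadly expressed alpha gene on the other side of Tuba1a, reached 17.6 and 20.97 TPM, a mean of 19.3 ± 2.38. Tuba4a (ENSMUSG00000026202.9, chromosome 1, 75214228 to 75219865, minus strand), an alpha gene without the terminal tyrosine codon and known from mature neurons and other adult tissues, reached 7.92 and 7.98 TPM, a mean of 7.95 ± 0.0424. Of the summed TPM of the 4 alpha genes, Tuba1a thus held 93.3% in replicate 1 and 93.1% in replicate 2. Tuba1b held 6.47% and 6.63%, Tuba1c 0.139% and 0.177%, and Tuba4a 0.0626% and 0.0674%.

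Beta-tubulin RNA was divided among several genes, with 3 at nearly the same level. Tubb2a (ENSMUSG00000058672.6, chromosome 13, 34074274 to 34078007, minus strand), a neuronal beta gene, was highest at 1501.4 and 1415.0 TPM in replicates 1 and 2, a mean of 1458.2 ± 61.1 (SD, n = 2). Tubb5 (ENSMUSG00000001525.10, chromosome 17, 35833921 to 35838306, minus strand), the beta gene of most proliferating cells, stood at 1266.9 and 1288.7 TPM, a mean of 1277.8 ± 15.4. Tubb3 (ENSMUSG00000062380.3, chromosome 8, 123411424 to 123422015, plus strand), the beta isotype used as a marker of postmitotic neurons, stood at 1245.4 and 1174.8 TPM, a mean of 1210.1 ± 49.96. The libraries of these 3 genes did not overlap, but the gap between Tubb5 and Tubb3 was 67.7 TPM against a summed SD of 65.3 TPM.

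The other beta members formed a lower tier. Tubb2b (ENSMUSG00000045136.5, chromosome 13, 34126748 to 34130466, minus strand), the neighbour of Tubb2a at a distance of 48.7 kb and a gene of migrating neurons, reached 650.2 and 582.8 TPM, a mean of 616.5 ± 47.7. Tubb4a (ENSMUSG00000062591.5, chromosome 17, 57080066 to 57087782, minus strand), known from neurons and oligodendrocytes, reached 310.5 and 290.4 TPM, a mean of 300.4 ± 14.2. Tubb4b (ENSMUSG00000036752.4, chromosome 2, 25222160 to 25224702, minus strand), a widely expressed gene also used in cilia, reached 271.1 and 295.4 TPM, a mean of 283.2 ± 17.2. Tubb4a was above Tubb4b in replicate 1 and below it in replicate 2.

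Within the summed TPM of the 6 beta genes, no gene held more than 28.6% in either library. Tubb2a held 28.6% and 28.0% in replicates 1 and 2, Tubb5 24.15% and 25.5%, and Tubb3 23.7% and 23.3%. Tubb2b held 12.4% and 11.55%, Tubb4a 5.92% and 5.75%, and Tubb4b 5.17% and 5.85%. Together Tubb2a, Tubb2b, Tubb3 and Tubb4a summed to 3707.5 and 3462.9 TPM, and Tubb5 with Tubb4b to 1538.0 and 1584.1 TPM. The inverse of the summed squared shares, which gives the number of equally abundant isotypes with the same concentration, was 1.145 ± 0.00324 for alpha and 4.585 ± 0.00187 for beta (SD, n = 2). Tubb5 became the largest beta gene, at 33.2% against 22.3% for Tubb2a, when reads were not divided by transcript length, since its effective length was 2523 bases against 1485 for Tubb2a.

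**Figure D1:**
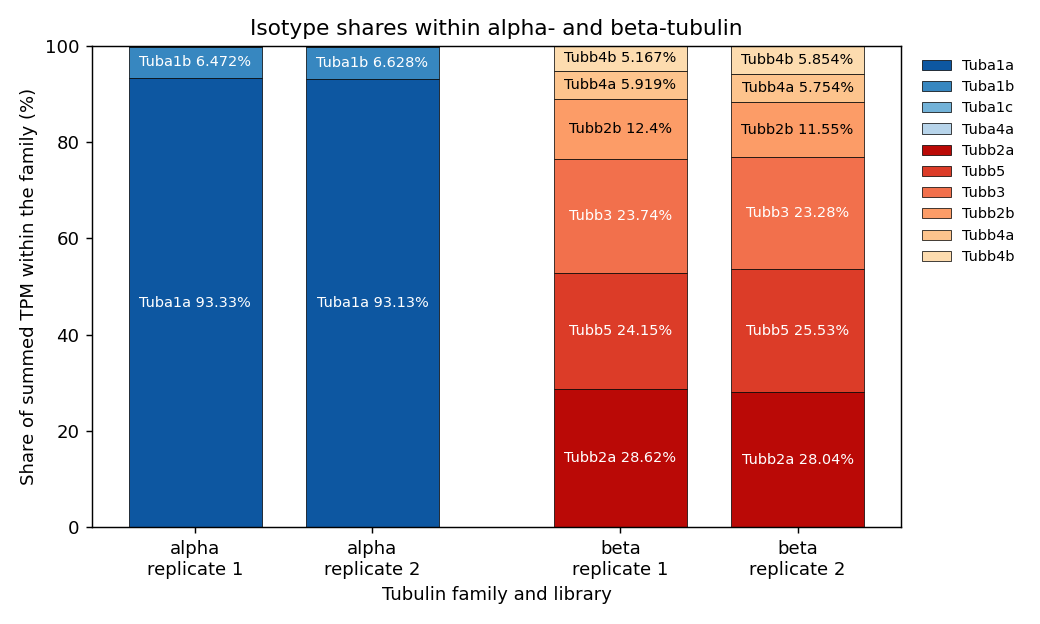
Share of summed TPM (%) held by each gene within the 4 alpha-tubulin genes and within the 6 beta-tubulin genes, 1 stacked bar per family and library. Tuba1a takes 93.3% and 93.1% of alpha, while Tubb2a, Tubb5 and Tubb3 divide most of beta, and the paired bars of replicates 1 and 2 look alike.

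In order of mean TPM the genes ran Tuba1a, Tubb2a, Tubb5, Tubb3, Tuba1b, Tubb2b, Tubb4a, Tubb4b, Tuba1c and Tuba4a. Neighbours were taken to differ beyond their spread where the values of the libraries did not overlap and the gap exceeded the sum of the SDs, and 8 of the 9 steps met this. The step from Tubb4a to Tubb4b, a gap of 17.2 TPM against a summed SD of 31.5, did not. The widest steps were from Tubb4b to Tuba1c, 15.4-fold and 14.1-fold in replicates 1 and 2, and from Tuba1a to Tubb2a, 7.86-fold and 7.79-fold.

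**Figure D2:**
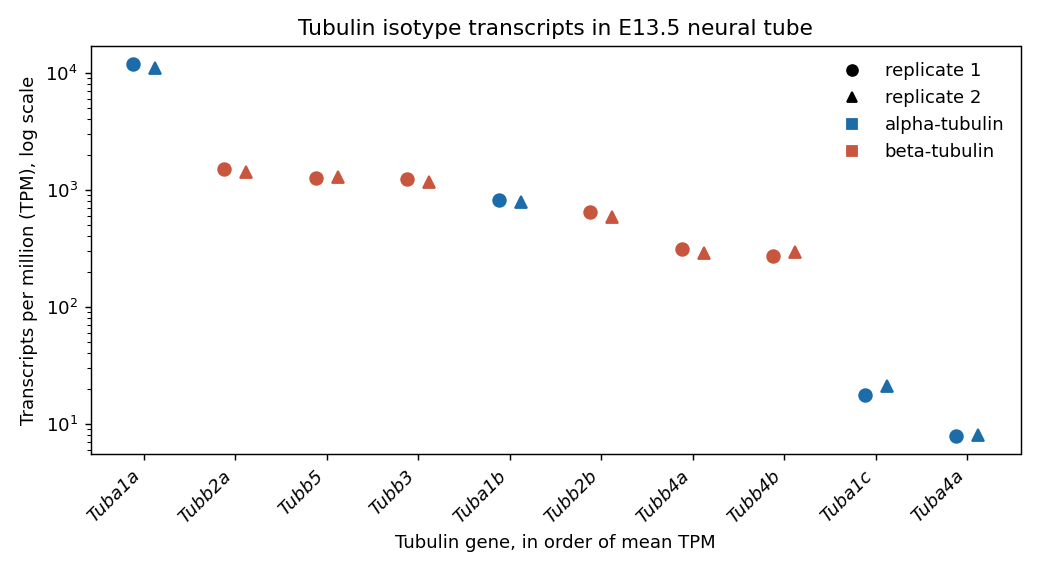
TPM on a log axis for the 10 genes in order of mean level, with a circle for replicate 1 and a triangle for replicate 2, alpha genes in blue and beta genes in red. Tuba1a sits at 11801.9 and 11026.3 TPM, 7 genes lie between 271 and 1501.4 TPM, and Tuba1c and Tuba4a reach at most 20.97 TPM.

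Alpha and beta subunits enter the dimer in equal number, and their RNA levels were compared on that account. The 4 alpha genes summed to 12645.9 and 11840.0 TPM in replicates 1 and 2, and the 6 beta genes to 5245.5 and 5047.0 TPM. Alpha thus exceeded beta by 2.38 ± 0.0459-fold (SD, n = 2), 2.41 in replicate 1 and 2.35 in replicate 2. Without Tuba1a the other 3 alpha genes came to 0.161 of summed beta in each library. For scale, Tuba1a stood at 2.47 ± 0.115 times the level of the beta-actin gene Actb (SD, n = 2), and summed alpha at 1.66 and 1.55 times Actb and Actg1 together. The 10 genes took 665855 of 32151162 gene reads in replicate 1, or 2.07% (95% Wilson interval 2.066 to 2.076), and 399605 of 21084234 in replicate 2, or 1.9% (1.889 to 1.901).

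How far the isotypes can be told apart by reads was asked of their sequences and of the posterior SD, the error in a gene's count that the deposited tables give for reads shared between genes. All 10 coding sequences lay in 4 exons. Coding identity was highest among Tuba1a, Tuba1b and Tuba1c, with 98.3% for Tuba1a and Tuba1b, 97.9% for Tuba1b and Tuba1c and 97.1% for Tuba1a and Tuba1c. Tubb2a and Tubb2b followed at 96.5%. Tuba4a was 84.7% to 85.2% identical to the other alpha genes, all other beta pairs fell between 81.2% and 84.5%, and alpha against beta between 52.3% and 55.1%. Tuba1a and Tuba1b differed at 20 of 451 codons, 18 of them synonymous, and Tubb2a and Tubb2b at 47 of 445, 45 of them synonymous.

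Windows of 100 bases, the read length implied by the tables' effective lengths, gave the same grouping. Tubb3, Tubb4a and Tubb5 shared no window with a transcript of another gene, and their posterior SD was 0 in both libraries. Tubb2a and Tubb2b shared 543 windows, 35.9% and 26.1% of their own, and their posterior SD was the same 104.5 reads in replicate 1 and 80.5 in replicate 2, under 0.53% of either count. The level of Tubb2a was 2.31 and 2.43 times that of Tubb2b in replicates 1 and 2, so the posterior SD was small beside the difference. Tuba1a had 65.8% and Tuba1b 73.0% of windows in other genes, with posterior SDs of 0.0252% and 0.363% of the count in replicate 1 and 0.0312% and 0.438% in replicate 2. The windows are those of GENCODE M21, whereas the posterior SD rests on the authors' GENCODE M4 models. Of the 17 genes outside the members that shared windows, 12 had a matched row.

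By posterior SD, which leaves out counting error, the low alpha genes were the least certain, though all 10 members stayed below the 10% taken here as uncertain. The Tuba4a share of alpha was 0.065% by TPM and 0.0785% by the deposited posterior mean TPM. Tuba1c had 53.4% of its windows in other members and a posterior SD of 3.79% and 4.38% of its count in replicates 1 and 2. It shared 42.4% of its windows with Tuba1b and 31.5% with Tuba1a. Tuba1c rested on 747 and 564 reads in replicates 1 and 2, beside 411403 and 243711 for Tuba1a. The part of misplaced Tuba1a or Tuba1b reads in the level of Tuba1c was not tested. In addition, 6 processed pseudogenes with a matched row shared windows with the Tuba1 genes, and they summed to 57.5 and 67.0 TPM in replicates 1 and 2. The highest, Gm14150, was listed at 22.1 and 30.4 TPM, above Tuba1c in each library. Reads of Tuba1a or Tuba1b placed on Gm14150 cannot be told apart here from its own, and their part in its level was not tested. For Tubb4b the shared windows, 30.6%, lay mostly in Tubb4b-ps1, which was listed at 0.53 and 0.56 TPM.

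**Figure D3:**
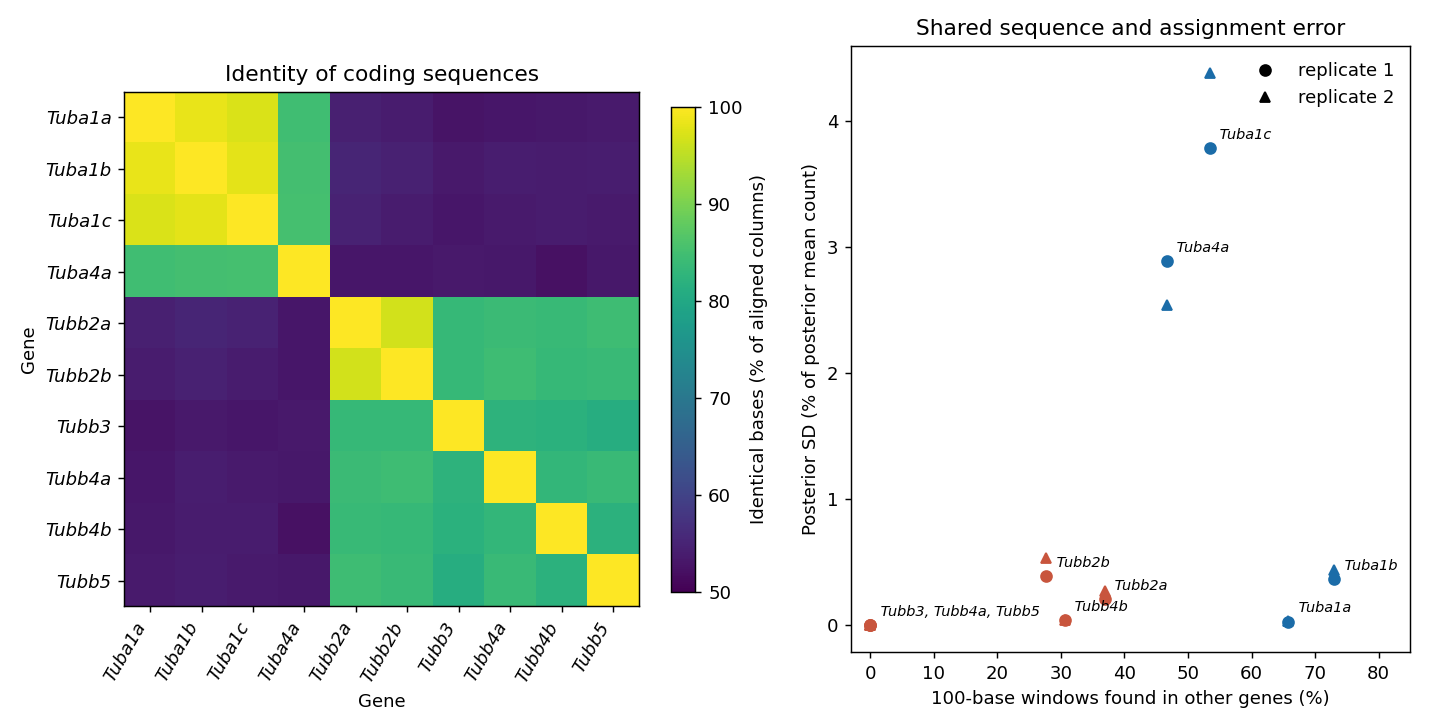
Left, identical bases (% of aligned columns) between the coding sequences of each pair of genes, on a colour scale from 50 to 100. Right, posterior SD (% of the posterior mean count) against the share of 100-base windows found in transcripts of other genes, with circles for replicate 1, triangles for replicate 2, alpha genes in blue and beta genes in red: Tubb3, Tubb4a and Tubb5 sit at 0 on both axes, and Tuba1c and Tuba4a are highest.

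Overlapping genes touched a few members, and the sources used here do not state how strand was handled. On the opposite strand, the kinase gene Stk16 covered 1379 bases of Tuba4a and was listed at 103.1 and 97.6 TPM in replicates 1 and 2, far above the 7.92 and 7.98 TPM of Tuba4a. Of the windows of Tuba4a, 46.7% also lay in Stk16 transcripts, and none in another tubulin member, counted on the full-length transcript Tuba4a-202. The posterior SD of Tuba4a, 9.24 and 5.24 reads, was the same as that of Stk16, so the level of Tuba4a carries this uncertainty. Tubb3 lies inside Gm20388, a long readthrough model listed at 3.73 TPM in replicate 1 and 0 in replicate 2. GENCODE M21 also has the readthrough model Gm49450, which joins Tuba1a and Tuba1b and has no gene row of its own in the tables. It held 31.2% of the windows of Tuba1a and 32.2% of those of Tuba1b, and its transcript was listed under Tuba1a, with 90.17 and 23.84 reads in replicates 1 and 2.

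One transcript carried nearly all of the RNA of each member except Tuba4a. The tables held 1 transcript for Tuba1c, Tubb2a, Tubb2b, Tubb3 and Tubb4a. Where there were several, the leading protein-coding transcript took 99.15% and 99.23% of the gene's TPM in replicates 1 and 2 for Tuba1a, 97.92% and 97.97% for Tuba1b, 99.28% and 99.03% for Tubb4b, and 98.49% and 98.53% for Tubb5. The retained-intron transcript Tuba1b-202 took 2.08% and 2.03% in replicates 1 and 2. Tuba4a had 8 transcripts, of which 3 were at 0: the leading one, whose coding sequence is annotated without a start, took 57.2% and 70.7%, Tuba4a-206 12.2% and 19.3%, and Tuba4a-202 14.8% and 6.3%. Tuba4a-203 took 8.21% and 3.69%, and the retained-intron transcript Tuba4a-205 7.61% and 0%. For Tuba4a-202 the posterior SD was 44.1% and 66.6% of the transcript's own count, so the division among Tuba4a transcripts was uncertain.

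Between the replicates, no tubulin member differed by 1.5-fold or more. The ratio, replicate 2 over replicate 1, used counts scaled with the TMM method of edgeR, and 17428 genes averaging at least 10 reads were compared. Of these genes, 9.62% were past 1.5-fold in either direction, and of the 12847 averaging at least 100 reads, to which all members belong, 1.61% were. Past 2-fold the shares were 3.37% and 0.451%, again with 0 of 10 members. The 10 members ran from a log2 ratio of -0.22 ± 0.015 (counting SE) for Tubb2b to 0.19 ± 0.08 for Tuba1c, so the count of 0 of 10 lies near the background of well-counted genes.

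The small differences had a direction for most members. Values were lower in replicate 2 for 8 of 10 members, against 51.3% of all tested genes, and higher for 2, against 48.7%. This background includes genes with far fewer reads, and a lower value in replicate 2 was not confined to tubulin. The 4 cytoskeletal genes listed for scale were lower too, but by little. Their log2 ratios were -0.07 for Actb, -0.06 for Actg1, -0.03 for Vim and -0.01 for Nefl. Of 21 genes that fold tubulin, 14 were lower and 7 higher, with a median log2 ratio of -0.03. The log2 ratio was -0.16 for Tuba1a and Tubb4a, -0.15 for Tubb2a and Tubb3, and -0.13 for Tuba1b, whereas it was -0.04 for Tubb5, -0.03 for Tuba4a and 0.06 for Tubb4b. The median of the members was -0.14, and that of all tested genes -0.01. On the deposited TPM 6 of 10 members were lower, with Tubb5 and Tuba4a changing sign. Actg1, Vim and Nefl were also higher in replicate 2 on the deposited TPM. With 1 library on each side the ratios have no replicate check, and the spread between libraries over all genes was a biological coefficient of variation of 9.24% (edgeR).

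Levels of marker genes also differed between the same libraries, and their part in the tubulin ratios was not tested. All 5 markers of dividing cells were higher in replicate 2, none by 1.5-fold, with a median log2 ratio of 0.41 and a summed level of 223.0 TPM in replicate 1 and 285.4 TPM in replicate 2. All 4 muscle and all 4 epidermis markers passed 1.5-fold upward, as did 912 of the 17428 tested genes, at summed levels of 37.48 and 95.03 TPM for muscle and 3.85 and 13.8 TPM for epidermis in replicates 1 and 2. Of 7 neuron markers, 5 were lower in replicate 2, with a median log2 ratio of -0.07 and sums of 2666.7 and 2628.9 TPM. Of 6 progenitor markers, 4 were higher, with a median of 0.04, and no neuron or progenitor marker passed 1.5-fold. The summed progenitor level was nevertheless lower in replicate 2, at 2210.5 and 2091.7 TPM in replicates 1 and 2. Most of it was Fabp7, at 2060.8 and 1934.0 TPM, with a log2 ratio of -0.16. Of 8 oligodendrocyte lineage genes, 6 were lower in replicate 2, none by 1.5-fold, with a median log2 ratio of -0.23. Of 5 platelet markers, 4 were lower, with a median of -0.2, and Gp1bb passed 1.5-fold. In such bulk samples, fewer cells of a type and less RNA per cell cannot be told apart.

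**Figure D4:**
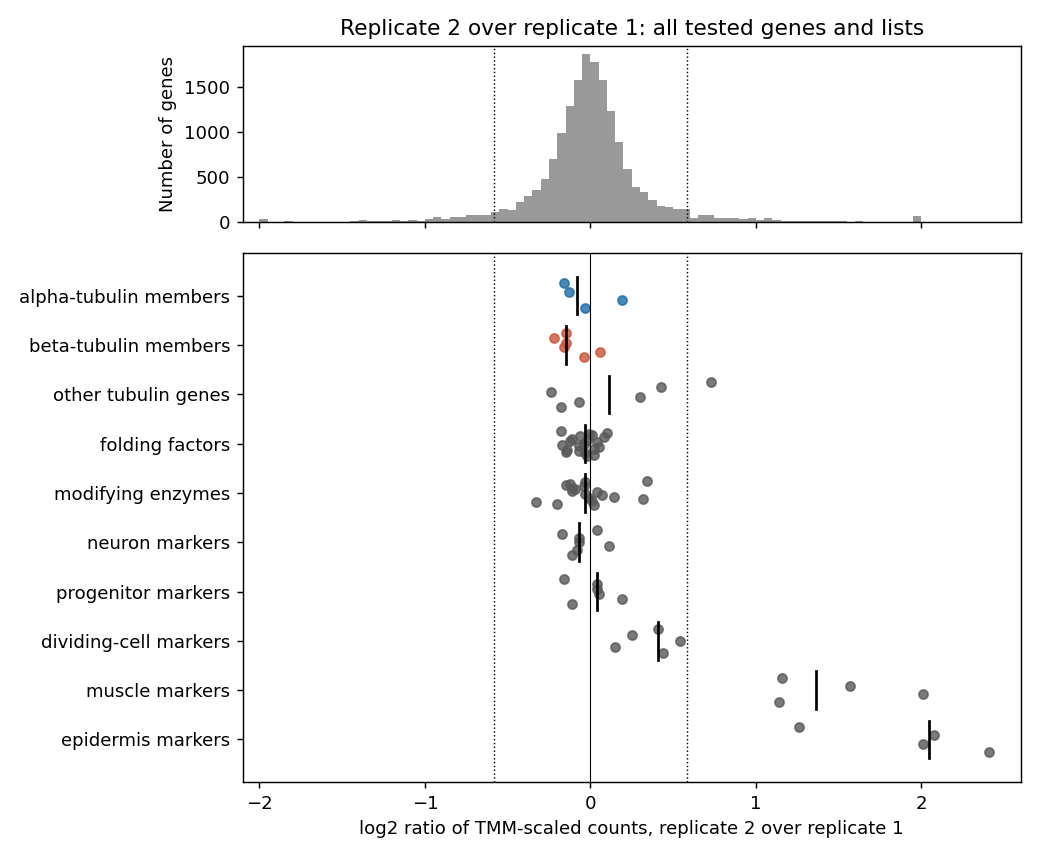
Log2 ratio of TMM-scaled counts, replicate 2 over replicate 1. Top, number of genes per bin over the 17428 tested genes, with values beyond 2 in either direction placed in the end bins. Bottom, 1 point per tested gene of each list, a black bar at the median and dotted lines at 1.5-fold: the alpha and beta members lie between -0.22 and 0.19, and the muscle and epidermis markers lie beyond the dotted line.

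Other tubulin genes were far below the main isotypes, though Tubg1, Tubb6 and Tubg2 stood above the members Tuba1c and Tuba4a in each library. Tubg1, the gamma-tubulin gene that seeds microtubules at centrosomes, reached 59.3 and 59.2 TPM in replicates 1 and 2, and its paralog Tubg2 29.3 and 27.0 TPM. Tubb6, a further beta gene, reached 29.95 and 42.3 TPM, so that it would hold 0.699% of beta-tubulin if added to the members. Delta-tubulin Tubd1 stood at 6.52 and 5.93 TPM and epsilon-tubulin Tube1 at 4.28 and 5.5 TPM, both centriole genes. Tubb1, the platelet isotype, was at 0.98 and 1.71 TPM, from 29 and 32 reads. It was the single gene past 1.5-fold of the 6 tested in this list, against 9.62% of all tested genes. Of 5 platelet markers, 4 reached 1 TPM in both libraries, with Pf4 at 43.1 and 36.4 TPM, and Gp1bb, at 11.7 and 8.22 TPM, passed 1.5-fold downward.

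The alpha genes of testis and other restricted tissues were at or near 0. Tuba8 had 9 and 5 reads, at 0.19 and 0.16 TPM. Tuba3a, Tuba3b and Tubal3 had 0 reads in both libraries, which, at 3 reads, allows up to 0.0941, 0.0792 and 0.0443 TPM in replicate 1 and 0.1485, 0.1249 and 0.0699 TPM in replicate 2. Of the 10 genes of this list, 5 reached 1 TPM in both libraries.

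Genes that fold tubulin were all present. Nascent tubulin passes through prefoldin and the CCT chaperonin to the cofactors Tbca to Tbce, which assemble the dimer, and all 21 genes of this list reached 1 TPM in both libraries, with a median of 237.4 TPM. The CCT subunit genes Cct5 at 402.5 ± 2.52, Cct3 at 391.9 ± 22.8 and Cct6a at 372.1 ± 26.7 TPM (SD, n = 2) were highest. Tbcel, which encodes a cofactor E-like protein, was lowest at 3.6 ± 0.0849 TPM. None of the 21 passed 1.5-fold between the libraries, against 1.61% of genes averaging at least 100 reads, and their median log2 ratio was -0.03.

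Tubulin-modifying genes ranged over a wide span. Of 19 genes, 18 reached 1 TPM in both libraries, and the median was 24.7 TPM. Atat1, the acetyltransferase of alpha-tubulin lysine, stood highest at 275.8 and 270.6 TPM in replicates 1 and 2. Svbp, the partner that vasohibins need to remove the terminal tyrosine, followed at 184.7 and 182.0 TPM, and Ttll1, part of a polyglutamylase, at 82.9 and 83.7 TPM. The polyglutamylase gene Ttll6 was lowest, with 2 reads in each library. None of the 18 tested passed 1.5-fold, against 9.62% of all tested genes and 1.61% of those averaging at least 100 reads. In replicate 2, 11 of the 18 were lower, against 51.3% of all tested genes. Ttc5, the reader of nascent tubulin counted in this list, stood at 77.2 and 74.9 TPM.

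**Figure D5:**
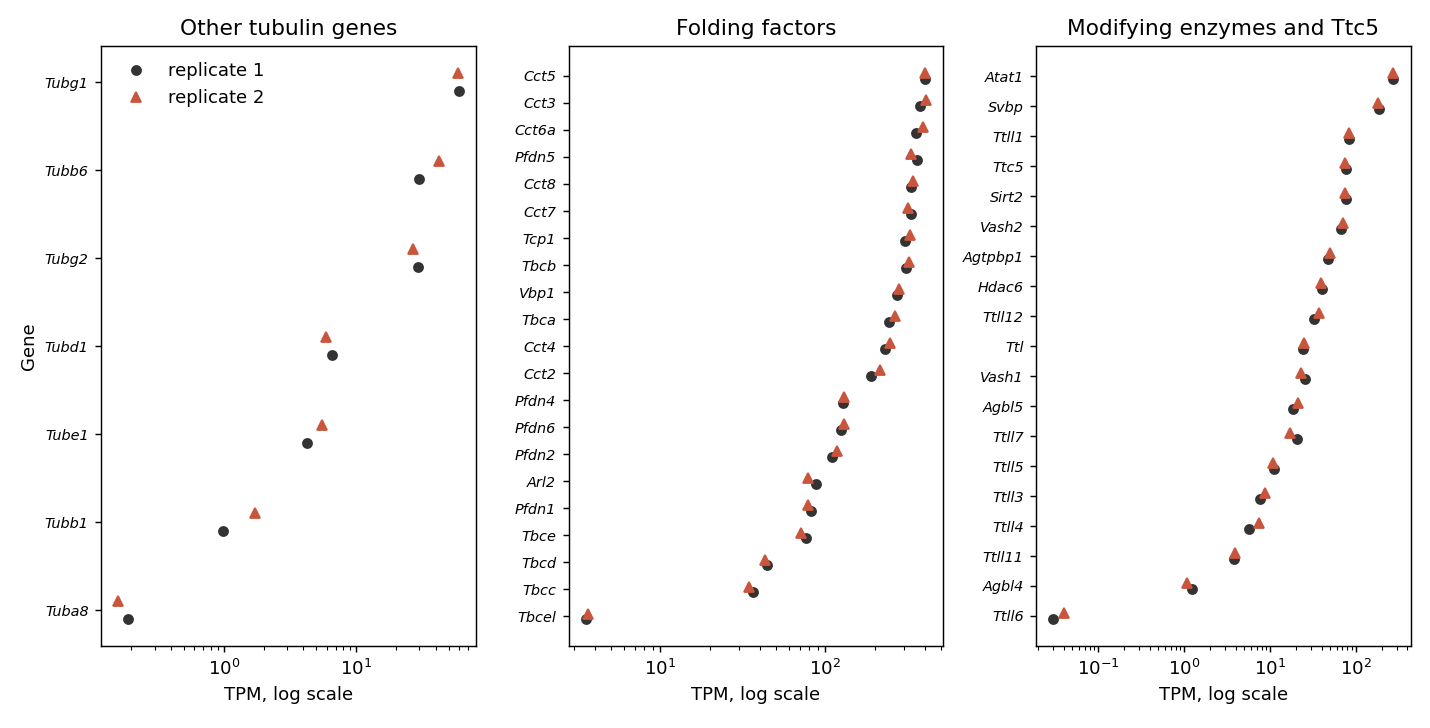
TPM on log axes for other tubulin genes, folding factors and modifying enzymes, with black circles for replicate 1 and red triangles for replicate 2. Genes listed at 0 in both libraries are left out, and among the other tubulin genes the replicates lie apart for Tubb1, at 0.98 and 1.71 TPM, and for Tubb6, at 29.95 and 42.3 TPM.

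The labelled tissue matched its markers. All 7 neuron markers reached 1 TPM in both libraries, led by Stmn2 at 806.5 ± 16.4 TPM (SD, n = 2), and so did 5 of 6 progenitor markers, with Sox1 at 0.72 and 0.86 TPM. The trunk genes Hoxb6, Hoxa7, Hoxb8 and Hoxc8 stood between 56.96 and 130.9 TPM, and the forebrain and midbrain genes Emx2 and Otx2 at or below 0.85 TPM. Otx2 rested on 1 read in replicate 1 and 24 in replicate 2. The 4 red cell genes summed to 5685.0 and 5978.9 TPM. Of 8 genes of the oligodendrocyte lineage, where Tubb4a is known to be expressed, 7 were detected, with a summed level of 122.8 and 111.3 TPM and Mog at 0.91 and 1.26 TPM. All 4 genes listed for multiciliated cells, where Tubb4b is known to build axonemes, were detected, at sums of 15.5 and 16.5 TPM. These low levels in bulk RNA do not show that such cells were present.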

How the data were processed

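Total RNA was sequenced in 2 libraries of 1 group, with replicate numbers from the labels. Per the file notes, the authors used build mm10 and GENCODE M4. Which aligner and quantifier they ran is not stated in these sources. The deposited expected counts are estimated reads per gene or transcript, 34125110 and 22311849 in replicates 1 and 2. The deposited TPM sum to a fixed total over all features, and rows other than mouse genes held 13.0% and 12.6% of it. The deposited FPKM served as an alternative. The deposited isoform percent is a transcript's share of its gene's TPM. Other deposited columns were the posterior SD in reads and effective lengths in bases, and the bounds of a TPM score interval, which were not used.

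Symbols came from GENCODE M21, which named 42462 of 43346 genes and gave GRCm38 (mm10) coordinates. Counts were rounded and scaled by TMM in edgeR 4.0.16 (R 4.3.3), with 0.5 added and no test, since each side is 1 library. DESeq2 1.42.0 size factors were an alternative. Counts of the libraries, whose totals already differed, were compared and differed by more than counting noise (chi-square per degree of freedom 8.31). The ratio calculation was tried on simulated counts that held counting noise only, so the trial does not bear on the wider spread between these libraries. Sequences were read from the leading M21 transcript with an annotated start and stop, and aligned globally in Biopython 1.88. Windows were matched exactly, on either strand, to all M21 transcripts. The plan was to name the members, other tubulin genes, and of each other list the 3 highest, the lowest and any past 1.5-fold. The marker lists are mostly given as counts and sums, so many of their genes under this rule are not named. Further list genes were named after their values were seen. Members and lists were chosen with earlier results of these data known. No molecular identifiers are named in the labels, so intervals and floors cover counting error only. Some items are not reported here.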

Additional observations from a re-analysis of the deposited data

How the results depend on the processing

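With 2 libraries, leaving out either gives the value of the other, which is no test of stability. The range was 93.13 to 93.33% for the Tuba1a share of alpha, 28.04 to 28.62% for the Tubb2a share of beta, 2.346 to 2.411 for alpha over beta and 11026.3 to 11801.9 TPM for Tuba1a. Shares with all family genes as the denominator stayed within the SD. So did shares and the alpha to beta ratio from FPKM or posterior mean TPM, except Tuba4a, at 0.0785% of alpha by posterior mean TPM. With counts not divided by length, Tuba1a held 92.88% of alpha, Tubb2a 22.28% of beta, and alpha over beta was 1.949. Rescaled to mouse genes alone, Tuba1a stood at 13095.2 TPM. The number of genes past 1.5-fold was 1676, and it was 207 at a mean count of 100 or more, 7540 with no count filter and 587 at 2-fold. On deposited TPM the ratio turned to 0.01 for Tuba4a and 0.02 for Tubb5, and 59.8% of the genes past 1.5-fold, genes at 0 TPM in 1 library left out, were higher in replicate 2, against 54.4% under TMM. Leaving the members out of the scaling, an alternative chosen after seeing the data, kept 8 of 10 lower. With a single group, no paired comparison of groups was possible. Ratios between genes were taken within each library, but the SD rule for neighbours in the order of levels did not use this pairing. Tuba4a rests on 320 and 208 reads, a counting error of 5.59% and 6.94%.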
